A study of Mus musculus with 16 samples.

Results

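A set of 10 genes of the cytosolic heat shock response and its basal chaperone partners were followed through RNA sequencing of mouse retinal pigment epithelium. The genes were chosen by name and role: Hspa1a, Hspa1b, Hsp90aa1, Hsph1, Dnajb1 and Hspb1 were handled as stress-inducible chaperone genes, Hspa8, Hsp90ab1 and Hspe1 as constitutive ones, and Hsf1 as the regulator. They are 10 of the 51912 gene identifiers in the count table, and all 10 passed the filter of a mean of 1 or more CPM (counts scaled to a library of 1e6) that left 15380 genes for testing. The lowest count of any of them in any library was 363, for Hspa1a.

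Chaperones bind unfolded protein and help it to fold or to be degraded. In unstressed cells HSF1 is held inactive by chaperones, and when misfolded protein draws these away HSF1 forms trimers that bind heat shock elements, repeats of GAA in alternating orientation, and switch on the inducible genes within minutes to hours. Constitutive members of the same families fold newly made protein at all times. The retinal pigment epithelium (RPE) is the pigmented cell layer behind the photoreceptors; it takes up shed photoreceptor membrane daily and works under a high oxidative load. Hydroquinone is an oxidant found in tobacco smoke, and its oxidised form reacts with protein thiols.

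All mice were 40-week-old C57BL/6 males. They were wild type or knockout for SUCNR1, the receptor for succinate, and mice of each genotype were either untreated or given hydroquinone to induce oxidative stress (dose and route are not given in the sources used here). This gave 4 groups of 4 libraries, each library from 1 eye. By the sample titles the untreated and treated wild-type libraries came from 2 and 4 mice and those of the knockout from 3 and 4, 13 in all, because 3 mice gave both eyes; the protocol text instead states 4 animals in every group, and the titles were followed. Total counts per library were 21113549 to 35332444. All 12 RPE markers had counts in every library, with a summed level of 21360 to 34180 CPM. The anterior segment was removed at dissection per the labels, yet 8 corneal epithelium markers (keratins such as Krt12 among them) summed to 3477 to 27670 CPM, and in wild type with hydroquinone replicates 1 and 2 stood apart in them with 23460 and 27670 CPM. Sucnr1 gave 29 counts over the 8 wild-type libraries, 4 of which had none, and 4 counts over the knockout libraries, so its level could not check the genotype labels at this depth.

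Promoter sequences are given first, since heat shock elements are what HSF1 binds. The RefSeq table (GRCm38.p6) held 6 of the 10 genes: Hspa1a, Hspa1b, Hsph1, Dnajb1, Hspb1 and Hspe1. Patterns of 2 lengths were searched on both strands in the 250 bases before each start: a 3-unit element (GAA, TTC and GAA with NN between each and the next, or its reverse complement, TTC, GAA and TTC with the same spacing) and a 2-unit element (GAANNTTC or TTCNNGAA, each its own reverse complement), which lies within the longer pattern. The sequences of 4 genes are shown because they span the range found, with the matched bases in capitals:
Hspa1a (chr17:34972157-34972406, minus strand): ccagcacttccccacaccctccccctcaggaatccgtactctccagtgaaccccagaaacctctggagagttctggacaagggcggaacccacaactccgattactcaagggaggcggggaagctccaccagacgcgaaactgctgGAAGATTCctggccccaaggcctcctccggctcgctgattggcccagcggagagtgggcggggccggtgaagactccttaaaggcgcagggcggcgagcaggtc
Hspb1 (chr5:135887669-135887918, plus strand): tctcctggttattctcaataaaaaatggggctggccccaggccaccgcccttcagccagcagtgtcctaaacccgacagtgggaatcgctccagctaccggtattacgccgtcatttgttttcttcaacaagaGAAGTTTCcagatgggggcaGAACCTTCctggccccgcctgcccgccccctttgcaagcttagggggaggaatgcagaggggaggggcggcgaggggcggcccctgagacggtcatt
Hspe1 (chr1:55087898-55088147, plus strand): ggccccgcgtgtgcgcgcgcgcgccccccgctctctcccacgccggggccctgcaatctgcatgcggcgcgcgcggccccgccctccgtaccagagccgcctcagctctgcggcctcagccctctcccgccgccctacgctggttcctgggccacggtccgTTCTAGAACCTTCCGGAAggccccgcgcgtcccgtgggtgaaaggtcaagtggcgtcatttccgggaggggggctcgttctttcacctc
Dnajb1 (chr8:83607925-83608174, plus strand): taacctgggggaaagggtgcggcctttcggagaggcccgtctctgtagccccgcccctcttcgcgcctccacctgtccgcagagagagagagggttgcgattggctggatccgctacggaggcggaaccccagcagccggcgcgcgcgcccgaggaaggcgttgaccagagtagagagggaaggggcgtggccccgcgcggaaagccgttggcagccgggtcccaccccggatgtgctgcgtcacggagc

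Hspe1, the small mitochondrial co-chaperonin handled here as constitutive, was the 1 gene of 6 with the 3-unit element, which 0.466% of the 32841 promoters in the table held. Its capitals are overlapping matches that run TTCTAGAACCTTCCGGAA. The 2-unit element was in 5 of 6 genes against 12.8% of all promoters. Hspb1, which encodes the small heat shock protein HSP25, had 2 of them, GAAGTTTC and GAACCTTC. Hspa1a and Hspa1b, neighbouring genes for almost identical inducible HSP70 proteins, each had GAAGATTC with its first base 104 bases upstream of the start, and their windows differed at 3 of 250 bases. Hsph1, the HSP110 gene, had TTCTCGAA. Neither start of Dnajb1, an HSP40 gene whose protein delivers clients to HSP70, had a match in this window.

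Levels were compared between genes as CPM per kb of exon, averaged over the 16 libraries. The cytosolic HSP90 genes were highest, Hsp90ab1 at 368 ± 39 and Hsp90aa1 at 323 ± 49 CPM per kb (SD), and their ranges overlapped. Hspa8, the constitutive HSP70, followed at 224 ± 22, with a range below that of Hsp90aa1 and above that of every gene after it. Hspb1 was at 49.0 ± 27.4 and Hspe1 at 40.7 ± 6.3, then Hspa1b at 23.6 ± 15.3 and Dnajb1 at 21.2 ± 4.7; neighbours in this stretch overlapped. Hsph1 at 9.54 ± 1.06 lay below all libraries of Dnajb1, and Hspa1a at 7.21 ± 2.49 and Hsf1 at 4.04 ± 0.36 CPM per kb came last, again with overlapping ranges. The classes were not separated by level: the inducible Hsp90aa1 lay above the constitutive Hspa8 and Hspe1 in every library, and it overlapped with the constitutive Hsp90ab1.

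Several of these genes share sequence with copies. Of all 50-base windows of the annotated transcripts, 60.3% of Hspa1a and 62.3% of Hspa1b occur in another gene, nearly all in each other. How reads matching both were assigned is not given in the sources used here, so the division of counts between Hspa1a and Hspa1b is uncertain. For Hspb1 48.8% of windows occur in the pseudogene Hsp25-ps1, which held 0 to 59 counts per library, and for Hsp90aa1 41.8% occur in Gm12346, which held 30 to 105. Hsph1 and Hsf1 had no shared window.

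Hydroquinone in wild-type RPE was compared first. None of the 10 genes passed (edgeR quasi-likelihood test, Benjamini-Hochberg adjusted p below 0.05 over 15380 genes), where 1 of all tested genes did, 0.0065%. None had an unadjusted p below 0.05, against 4.28% of all genes, and none had treated libraries that all lay on one side of the untreated ones, against 2.91%. Among the inducible genes 5 of 6 had a positive log2 fold change, with a median of 0.36 against -0.00020 for all genes tested. In Hspa1a, Hspa1b, Dnajb1 and Hspb1 this came with 2 of the 4 treated libraries, the highest of all libraries.

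Hspa1a was at 19.9, 18.8, 16.9 and 19.1 CPM in the untreated wild-type libraries and at 33.9, 40.5, 14.1 and 21.2 CPM with hydroquinone (replicates 1 to 4). Its treated libraries thus ranged from below all untreated ones to above all of them. The log2 fold change was 0.55 (SE 0.28, 95% interval -0.04 to 1.14; edgeR adjusted p = 0.994). Hspa1b was at 78.3, 41.4, 42.0 and 95.7 CPM untreated and at 138.7, 186.7, 29.9 and 46.1 CPM with hydroquinone. Again replicates 1 and 2 were above every untreated library and replicate 3 was below every one. Its log2 fold change was 0.64 (SE 0.49; edgeR adjusted p = 0.994), an interval of -0.40 to 1.68.

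Hspb1, whose product is an ATP-independent holdase that also acts on the actin cytoskeleton, showed the same layout. It was at 60.7, 35.3, 35.5 and 53.3 CPM untreated and at 91.1, 138.8, 21.98 and 40.4 CPM with hydroquinone, for which edgeR gave a log2 fold change of 0.66 (SE 0.42, adjusted p = 0.994). Dnajb1 was at 72.9, 66.3, 60.1 and 73.3 CPM untreated and at 90.6, 111.1, 47.9 and 60.8 CPM with hydroquinone, with a smaller log2 fold change of 0.18 (edgeR, SE 0.20, adjusted p = 0.994). In all 4 of these genes replicate 2 of this group was the highest of the 16 libraries, replicate 1 the second highest and replicate 3 the lowest. With replicates 1 and 2 left out, the log2 fold changes were -0.11 for Hspa1a, -0.79 for Hspa1b, -0.35 for Dnajb1 and -0.60 for Hspb1, so the direction of each turned. These 2 libraries were picked after seeing that they were the highest, so a lower value was fixed by the choice. Values without them, here and below, are description only. Dnajb1 turned with replicate 2 alone left out, to -0.05.

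The remaining inducible genes did not share this layout. Hsp90aa1, the stress-inducible HSP90, was at 1149, 1329, 1342 and 1039 CPM untreated and at 1028, 1144, 1583 and 1236 CPM with hydroquinone, where replicates 1 and 2 were the lowest of the 4 treated libraries. Hsph1, which encodes a nucleotide exchange factor for HSP70, was at 79.3, 82.4, 68.3 and 57.0 CPM untreated and at 65.3, 60.6, 65.1 and 68.0 CPM with hydroquinone. The treated libraries lay inside the untreated range, and the log2 fold change was -0.16 (SE 0.12, edgeR adjusted p = 0.994). The 6 melanocyte markers summed to 4840 to 7893 CPM untreated and 3504 to 4334 CPM treated in wild type; their part in the Hsph1 value was not tested. In bulk tissue, fewer cells of a type and less RNA per cell cannot be told apart.

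The constitutive genes and the regulator had log2 fold changes near 0. Hspa8 was at 1020, 992, 986 and 768 CPM in the untreated wild-type libraries and at 826, 808, 1074 and 975.3 CPM with hydroquinone. Replicates 1 and 2, the highest in the inducible HSP70 genes, were the lowest of the treated libraries here. Hsp90ab1 was at 1279, 1031, 1022 and 986 CPM untreated and at 1135, 1357, 1106 and 1018 CPM with hydroquinone. Hspe1 was at 74.6, 63.8, 68.8 and 49.4 CPM untreated and at 53.7, 73.0, 54.9 and 65.0 CPM with hydroquinone, so the gene with the fullest heat shock element in its promoter also overlapped fully between the groups. Log2 fold changes of the 3 genes lay between -0.07 and 0.09, with a median of -0.04. Hsf1 itself was at 25.4, 29.4, 26.1 and 29.8 CPM untreated and at 27.4, 31.4, 23.5 and 29.3 CPM with hydroquinone; transcript level does not report HSF1 activity, which is set by protein state.

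**Figure D1:**
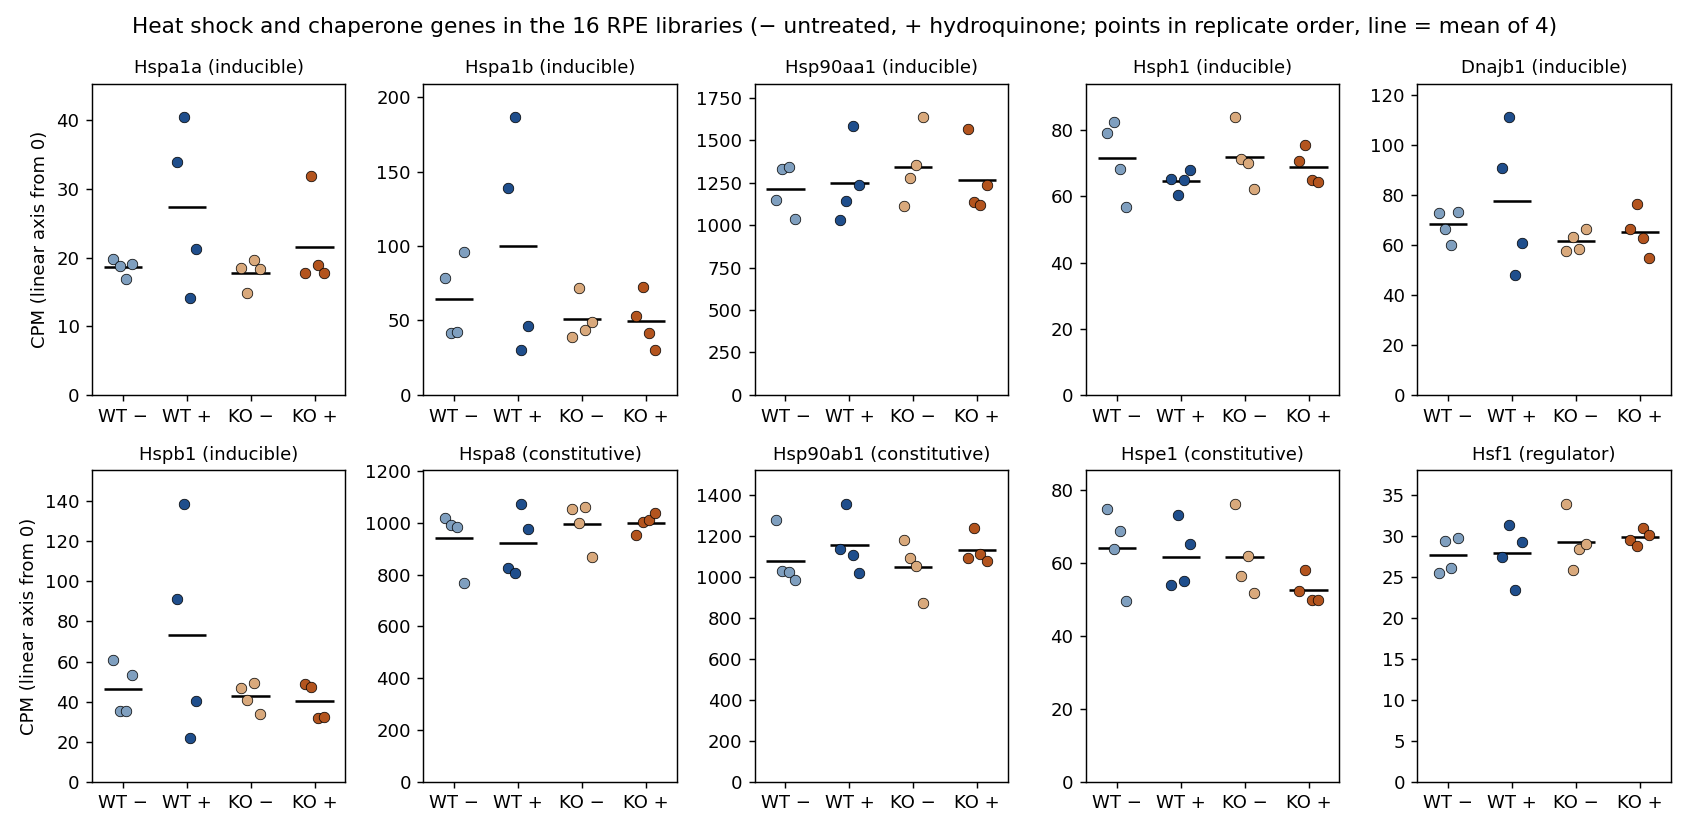
CPM (linear axes from 0) of each of the 10 genes in each library of the 4 groups (WT wild type, KO knockout, − untreated, + hydroquinone), with the mean of 4 libraries as a line. In Hspa1a, Hspa1b, Dnajb1 and Hspb1 the wild-type hydroquinone libraries spread beyond the untreated ones on both sides, for example 29.9 to 186.7 CPM in Hspa1b, while Hspa8 stays between 768 and 1074 CPM over all 16 libraries.

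In knockout RPE the same comparison gave medians near 0 for both classes. None of the 10 passed (edgeR adjusted p below 0.05), against 7 of 15380 genes, 0.0455%, and none had an unadjusted p below 0.05, against 2.96%. No gene had groups without overlap, against 1.78%. Of the inducible genes 2 of 6 had a positive log2 fold change, with a median of -0.05 against -0.0014 for all genes. Of the constitutive genes 2 of 3 were positive, with a median of 0.0073.

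Hspa1a was at 18.4, 14.9, 19.7 and 18.4 CPM in untreated knockout and at 17.8, 31.9, 18.9 and 17.8 CPM with hydroquinone. Only treated replicate 2 lay outside the untreated range, and the log2 fold change of 0.28 (edgeR, SE 0.28, adjusted p = 1.00) was 0.01 without it. Hspa1b was at 38.6, 72.1, 43.5 and 49.1 CPM untreated and at 53.1, 72.4, 41.8 and 30.0 CPM with hydroquinone, a log2 fold change of -0.03 (SE 0.49) with an interval of -1.07 to 1.01. The interval is too wide to show a change of moderate size in either direction at this depth and number of libraries. Hspb1 was at 47.0, 40.7, 49.5 and 33.8 CPM untreated and at 49.0, 47.1, 31.8 and 32.2 CPM with hydroquinone, a log2 fold change of -0.09 (SE 0.42). Dnajb1 was at 57.5, 63.3, 58.1 and 66.4 CPM untreated and at 66.3, 76.2, 62.7 and 54.7 CPM with hydroquinone, a log2 fold change of 0.09 (SE 0.20). All 4 genes overlapped between the groups.

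Hspe1 had the smallest unadjusted p of the 10 genes in this comparison. It was at 76.1, 56.3, 61.7 and 51.8 CPM in untreated knockout and at 52.3, 58.1, 49.7 and 49.7 CPM with hydroquinone, a log2 fold change of -0.23 (edgeR, SE 0.15, adjusted p = 1.00). Much of this came from untreated replicate 1, without which the value was -0.10. Hsp90aa1 ranged from 1113 to 1637 CPM untreated and from 1120 to 1568 CPM treated, Hsph1 from 62.3 to 84.0 and from 64.3 to 75.5, and Hspa8 from 868 to 1063 and from 953 to 1039. Hsp90ab1 ranged from 872 to 1179 CPM untreated and from 1075 to 1237 CPM treated, and Hsf1 from 25.9 to 33.9 and from 28.8 to 31.0. In each of these 5 genes the ranges overlapped. Averaged over genotype, Hspa1a had a log2 fold change of 0.41 with hydroquinone (SE 0.20, 95% interval -0.0048 to 0.83; edgeR adjusted p = 0.875), and none of the 10 passed, against 0.0845% of all genes (at an unadjusted p below 0.05, none against 5.72%). The Hspa1a value was 0.08 without wild-type hydroquinone replicates 1 and 2.

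**Figure D2:**
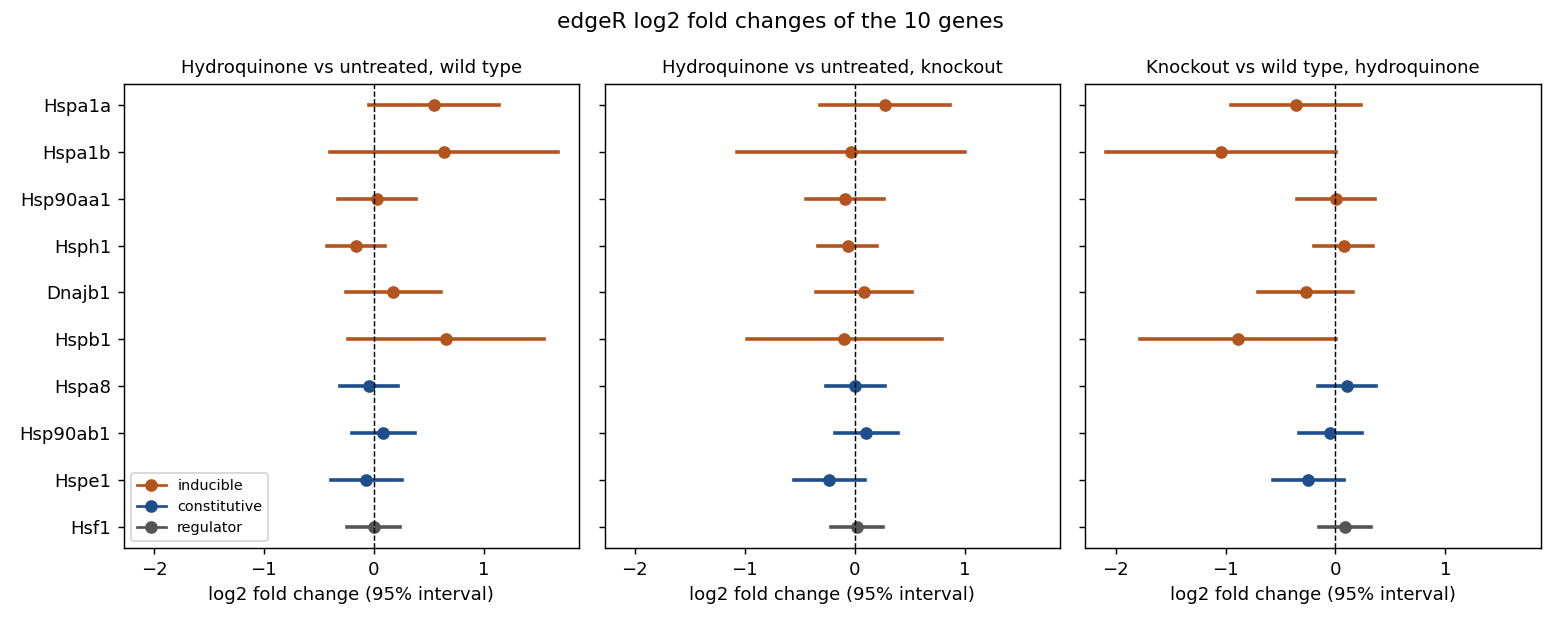
Log2 fold change (x axis) of the 10 genes for hydroquinone against untreated in each genotype and for knockout against wild type under hydroquinone, from edgeR, with 95% intervals as bars and colour for the class of gene. Every interval includes 0; those of Hspa1b and Hspb1 are the widest, and those of Hspa8, Hsp90ab1 and Hsf1 are narrow around 0.

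Loss of SUCNR1 was compared within each treatment. None of the 10 genes passed in untreated mice, under hydroquinone or averaged over treatment (edgeR adjusted p below 0.05), and no other gene did either (0%). With an unadjusted p below 0.05 there was again none of the 10, against 1.32% of all genes in untreated mice, 4.18% under hydroquinone and 2.96% averaged over treatment. No gene of the 10 had groups without overlap, against 1.22% of all genes untreated and 2.43% under hydroquinone. In untreated mice the log2 fold changes of the inducible genes lay between -0.37 and 0.12, and those of the constitutive genes between -0.08 and 0.05.

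Under hydroquinone the HSP70 and small heat shock protein genes came closest to the threshold. Hspa1b averaged 100.3 ± 74.9 CPM in wild type and 49.4 ± 18.1 CPM in knockout (mean ± SD of 4 libraries), with an edgeR log2 fold change of -1.04 (SE 0.49, 95% interval -2.09 to 0.0071; edgeR adjusted p = 1.00). Hspb1 averaged 73.1 ± 52.7 CPM in wild type and 40.0 ± 9.3 CPM in knockout, with a log2 fold change of -0.88 (SE 0.42, 95% interval -1.78 to 0.0077; edgeR adjusted p = 1.00). In both genes wild-type replicates 1 and 2 were the highest libraries. Without these 2 libraries, picked after seeing the data, the values were 0.39 and 0.37. This comparison and that of hydroquinone in wild type share the wild-type hydroquinone libraries. Hspe1 had a log2 fold change of -0.25 (SE 0.15), and Hspa1b averaged over treatment had -0.70 (SE 0.34; edgeR adjusted p = 0.987), which was 0.0078 without those libraries.

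The difference between genotypes in the response to hydroquinone (the interaction) passed for none of the 10 genes, with 0% of all genes passing and 1.92% at an unadjusted p below 0.05. Its smallest p among them was that of Hspb1, with -0.75 (SE 0.59; edgeR adjusted p = 1.00). That value was 0.50 without wild-type hydroquinone replicates 1 and 2. DESeq2 and limma with the mouse as a block also called none of the 10 genes in any of the 7 comparisons. At an unadjusted p below 0.05 limma had none of them. DESeq2 had 1 for hydroquinone averaged over genotype, 2 for knockout under hydroquinone and 1 for knockout averaged over treatment. The share of all genes at that p was not computed for DESeq2, so no result is read from these counts.

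Inducible and constitutive chaperones were then set against each other within each library, as the mean log2(CPM + 1) of the 6 inducible genes minus that of the 3 constitutive genes. In wild type this was -2.27 ± 0.24 untreated and -2.08 ± 0.55 treated, and in knockout -2.34 ± 0.19 untreated and -2.31 ± 0.20 treated (mean ± SD of 4 libraries). The difference with hydroquinone was 0.19 in wild type and 0.03 in knockout, both smaller than the pooled SD between libraries of 0.42 and 0.19. Without wild-type hydroquinone replicates 1 and 2 the wild-type difference was -0.27.

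The paralog pairs gave the same contrast on a scale per exon length. The inducible HSP70 pair, Hspa1a plus Hspa1b, stood at 13.9 ± 6.4% of Hspa8 in untreated and 22.8 ± 17.4% in treated wild-type libraries, and at 10.5 ± 2.4% and 10.7 ± 3.8% in those of knockout mice. The wild-type hydroquinone libraries covered 6.19 to 42.7%, which takes in the whole untreated range of 9.03 to 22.7%. Summing the pair also sets aside how reads were divided between them, but not whether reads matching several genes were left out. That is not given in the sources used here, so the percentages are uncertain. Of the 50-base windows of Hspa8, 38.6% occur in other genes as well. For the HSP90 pair, the ratio of Hsp90aa1 to Hsp90ab1 was 0.87 ± 0.15, 0.84 ± 0.21, 1.01 ± 0.30 and 0.86 ± 0.17 in the same order of groups, so no group stood outside another.

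The genes also differed in how much they varied between libraries, taken over all 4 groups together. Over the 16 libraries the highest value was 6.32 times the lowest in Hspb1, 6.24 times in Hspa1b, 2.86 times in Hspa1a and 2.32 times in Dnajb1. In the other 6 genes this ratio was between 1.398 and 1.592. By the SD of log2 CPM, Hspa1b was at percentile 93.4 of all tested genes and Hspb1 at 89.7, while Hspa8 was at 12.7 and Hsf1 at 6.18. The class labels did not follow this split, since the inducible Hsp90aa1 was at 33.04 and Hsph1 at 14.5.

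Eyes of 1 mouse, alike in genotype and treatment, also differed in these genes. In each of the 3 pairs 1 library identifier carries a letter and the other does not, so eye and identifier form cannot be told apart. In the pairs from 2 untreated wild-type mice Hspa1b was at 78.3 and 41.4 CPM and at 42.0 and 95.7 CPM, ratios of 1.89 and 2.28. Hspb1 differed 1.72 and 1.501 times in the same pairs, and the same eye was higher in both genes. In the pair from an untreated knockout mouse the ratios were 1.13 and 1.05. Hspa1a differed by at most 1.13 times and Dnajb1 by at most 1.22 times in the 3 pairs.

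By Pearson's r, 4 of the inducible genes varied together over the 13 mice (eyes of a mouse averaged, log2(CPM + 1)). The permutation p was adjusted over 45 pairs of genes. By Spearman's rho only Hspa1b with Dnajb1 passed among the pairs of these 4 genes. Hspa1b and Dnajb1 had Pearson's r = 0.958 (permutation adjusted p = 0.00045) and Spearman's rho = 0.912 (permutation adjusted p = 0.00135), and r was 0.859 without the 2 mice farthest from the median of Hspa1b. Hspb1 had r = 0.923 with Hspa1b and r = 0.932 with Dnajb1 (permutation adjusted p = 0.0012 for each), with rho = 0.731 and 0.698 (permutation adjusted p = 0.0672 for each) and r = 0.703 and 0.794 without the 2 farthest mice. Hspa1a and Hspa1b, for all their shared sequence, had r = 0.813 and rho = 0.588 (permutation adjusted p = 0.00771 and 0.158), and r was 0.408 without the 2 farthest mice, so this relation rests on those mice. Likeness to Hspb1 and Hspa1a was not particular to this set. By rho, Eif3h at 0.791 ranked only 366 among tested genes for Hspb1, and Tead3 at 0.742 ranked 590 for Hspa1a. The share of all genes with relations this strong was not computed, here or for the marker scores below.

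The identifier form is a possible difference in preparation; libraries without and with a letter numbered 3 and 1 in wild type with hydroquinone and 2 and 2 in each of the other groups. Within the 9 libraries without and the 7 with a letter, r of Hspa1b and Dnajb1 was 0.970 and 0.851, and r of Hspa1b and Hspb1 was 0.927 and 0.719. For Dnajb1 and Hspb1 it was 0.958 and 0.346, and for Hspa1a and Hspa1b 0.841 and 0.254. Hspa1a had 0.915 and 0.0448 with Dnajb1, and 0.846 and 0.481 with Hspb1. These relations were weak among libraries with a letter, least so for Hspa1a with Hspb1. Hspa8 went the other way from its inducible paralog: r with Hspa1b was -0.799 and rho -0.769 (permutation adjusted p = 0.00636 and 0.0486), with -0.880 and -0.889 within the 2 forms and -0.483 without the 2 farthest mice, so it rests in part on those mice. With Dnajb1 it was -0.805, rho -0.775 (permutation adjusted p = 0.00367 and 0.0486), with -0.889 and -0.858 within the 2 forms and -0.657 without the 2 farthest mice. Hsp90aa1, Hsph1, Hsp90ab1, Hspe1 and Hsf1 were in no pair that passed by r.

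**Figure D3:**
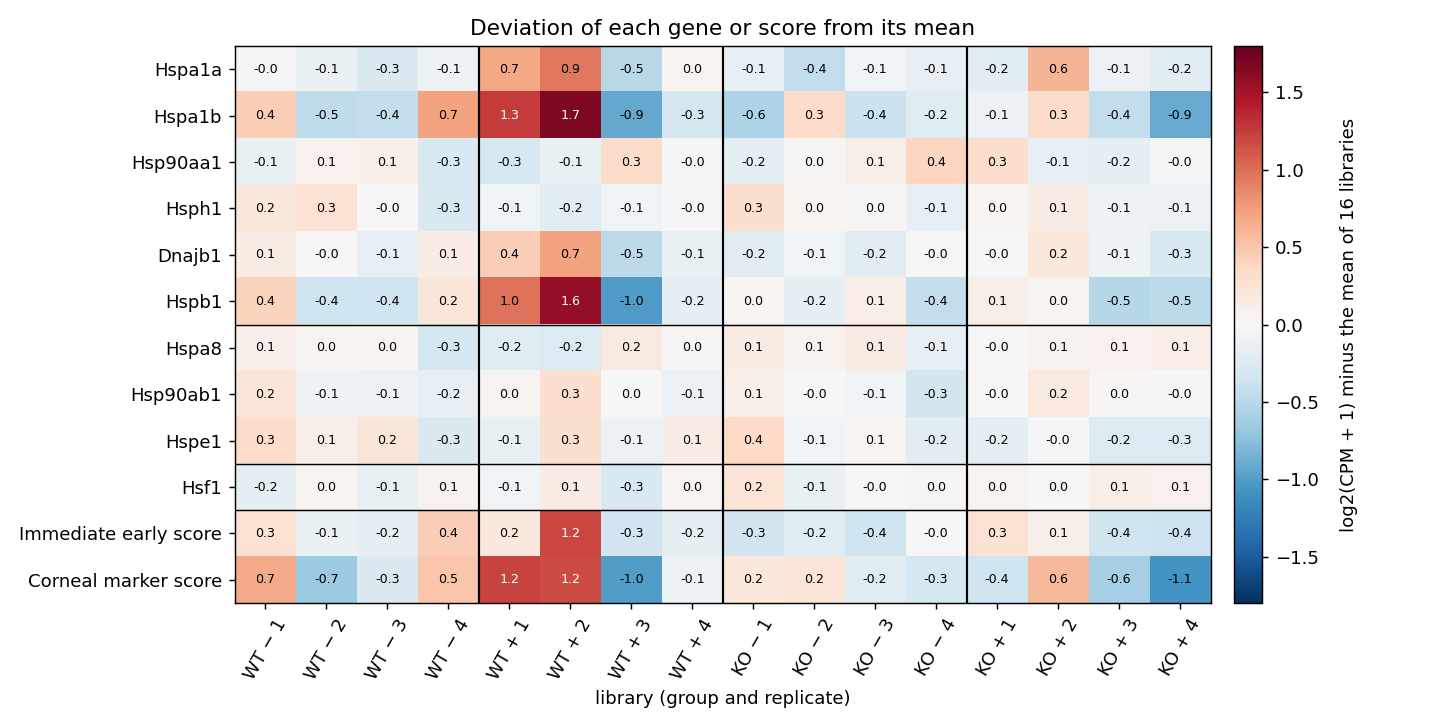
Log2(CPM + 1) of each gene, and mean scores of the immediate early genes and corneal epithelium markers, as the difference from its own mean over the 16 libraries (colour and printed value; columns are libraries by group and replicate, WT wild type, KO knockout, − untreated, + hydroquinone). Wild-type hydroquinone replicates 1 and 2 are high and replicate 3 low in Hspa1a, Hspa1b, Dnajb1, Hspb1 and the corneal score.

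The variable inducible genes moved with markers of another tissue. In wild type, corneal epithelium markers summed to 14550, 4749, 7101 and 11870 CPM untreated and 23460, 27670, 3881 and 7981 CPM treated. In knockout they summed to 8885, 11170, 6888 and 6007 CPM untreated and 8347, 13070, 4889 and 3477 CPM with hydroquinone. Replicates 1 and 2 of wild type with hydroquinone were the highest and replicate 3 the second lowest. The eye of each untreated wild-type mouse with more Hspb1 and Hspa1b also had more of these markers. The pair from an untreated knockout mouse went the other way. There replicate 3 had slightly more of both genes than replicate 1 but fewer of these markers, 6888 against 8885 CPM. All 8 markers had counts in every library, with the exception of Clca3a2 in 1 wild-type hydroquinone library.

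Over the 13 mice the mean log2 level of the 8 corneal markers had r = 0.947 and rho = 0.912 with Hspa1b (permutation adjusted p = 0.001 and 0.006 over 100 pairs of list and gene). It had r = 0.891 with Dnajb1, 0.888 with Hspb1 and 0.822 with Hspa1a (permutation adjusted p = 0.0025, 0.0025 and 0.0085), with rho = 0.797, 0.747 and 0.665 (permutation adjusted p = 0.0254, 0.0447 and 0.107). Without the 2 mice farthest in the corneal score, r was 0.907 for Hspa1b, 0.780 for Dnajb1, 0.774 for Hspb1 and 0.572 for Hspa1a. Within the library forms without and with a letter it was 0.905 and 0.932 for Hspa1b, 0.895 and 0.686 for Dnajb1, 0.897 and 0.828 for Hspb1, and 0.837 and 0.544 for Hspa1a. With this score as a covariate in edgeR, the log2 fold change for hydroquinone in wild type was 0.30 for Hspa1a, 0.11 for Hspa1b, 0.01 for Dnajb1 and 0.18 for Hspb1. For knockout under hydroquinone it was -0.07 for Hspa1b and -0.03 for Hspb1. This covariate was added after seeing the data, and its score was highest in the same 2 wild-type hydroquinone libraries. The part of corneal tissue in these values was not tested.

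Immediate early genes, which switch on within minutes of stimulation or of tissue handling, moved with most of the same genes. In wild type the 16 listed ones summed to 1037, 658, 728 and 1095 CPM untreated and 1269, 1960, 559 and 738 CPM treated, and to 567 to 935 CPM in the 8 knockout libraries. Their mean log2 level had r = 0.883 with Dnajb1, 0.852 with Hspb1, 0.839 with Hspa1b and -0.769 with Hspa8 (permutation adjusted p = 0.002, 0.00771, 0.0054 and 0.00771), with rho = 0.830, 0.819, 0.813 and -0.813 (permutation adjusted p = 0.0227 for each). Without the 2 farthest mice r was 0.731, 0.631, 0.648 and -0.678 in that order, and within the forms without and with a letter it was 0.887 and 0.880, 0.863 and 0.543, 0.824 and 0.920, and -0.788 and -0.963. The relation was weakest for Hspa1a, with r = 0.733 and rho = 0.533 (permutation adjusted p = 0.0449 and 0.241), r = 0.485 without the 2 farthest mice, and 0.760 and 0.0625 within the 2 forms. With this score as a covariate in edgeR, the log2 fold change for hydroquinone in wild type was 0.38 for Hspa1a, 0.27 for Hspa1b, 0.04 for Dnajb1 and 0.28 for Hspb1. This covariate too was added after seeing the data. Values were lower with either the corneal or the immediate early score, and the part of each was not tested.

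**Figure D4:**
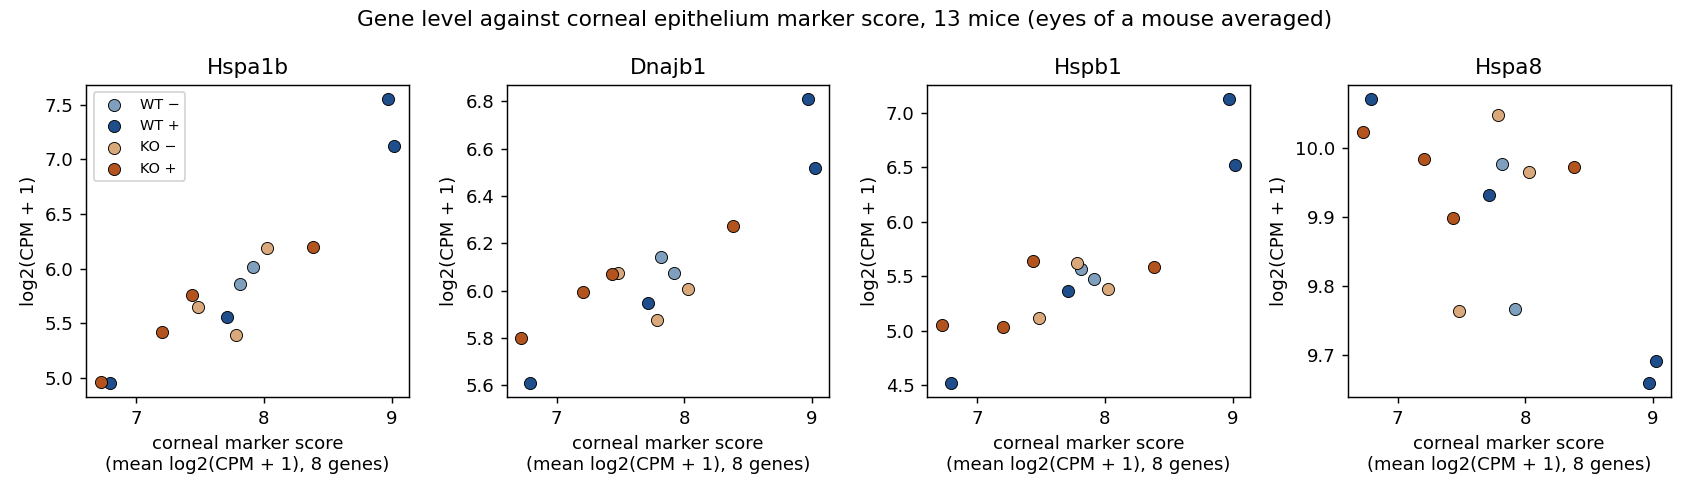
Log2(CPM + 1) of Hspa1b, Dnajb1, Hspb1 and Hspa8 (y axes) against the corneal marker score (x axis, mean log2(CPM + 1) of 8 markers) in 13 mice, 1 point each, coloured by group. The first 3 genes climb with the score (r = 0.947, 0.891 and 0.888), and 2 wild-type hydroquinone mice sit at the upper right; Hspa8 has r = -0.691 (permutation adjusted p = 0.083, so it did not pass), and -0.306 without the 2 farthest mice.

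The wider chaperone network was covered by 77 other genes in 8 lists, of which 76 were tested. None passed in any of the 7 comparisons (edgeR adjusted p below 0.05). At an unadjusted p below 0.05 there were 4 for hydroquinone in wild type (5.26%, against 4.28% of all genes), 1 for hydroquinone in knockout (1.32% against 2.96%) and 1 for hydroquinone averaged over genotype (1.32% against 5.72%). Loss of SUCNR1 gave 1 in untreated mice (1.32% against 1.32%), 5 under hydroquinone (6.58% against 4.18%) and 1 averaged over treatment (1.32% against 2.96%), and the interaction gave 5 (6.58% against 1.92%). The genes below are those with the smallest unadjusted p, and none of them passed.

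Other small heat shock proteins did not share the layout of Hspb1. For hydroquinone in wild type 0 of 6 had a positive log2 fold change, with a median of -0.38 against -0.00020 for all genes, and in knockout 1 of 6 did, with a median of -0.13. Markers of some other tissues were on the same side in wild type: 0 of 8 skeletal muscle markers were positive (median -0.51) and 0 of 7 tested lens markers (median -0.97). Among oligodendrocyte markers 1 of 8 was positive (median -3.04), among rod markers 0 of 15 (-0.79) and among melanocyte markers 1 of 6 (-0.23). Others went the other way: 6 of 7 tested corneal markers were positive (median 0.58), 8 of 8 macrophage markers (0.23) and 5 of 8 endothelial markers (0.02). The part of these markers in the small heat shock protein values was not tested. Hspb8, which works with the co-chaperone BAG3 in selective autophagy, averaged 98.0 ± 13.3 CPM untreated and 70.6 ± 5.6 CPM treated in wild type, and 84.1 ± 25.9 CPM untreated and 104.9 ± 8.9 CPM treated in knockout (mean ± SD of 4 libraries). Its log2 fold change was -0.48 in wild type (SE 0.18, edgeR adjusted p = 0.994), and the interaction was 0.80 (SE 0.25, edgeR adjusted p = 1.00). Hspa2, an HSP70 best known from the testis, was at 14.4 ± 3.3 CPM untreated and 10.2 ± 0.5 CPM treated in wild type, for which edgeR gave -0.50 (SE 0.17, adjusted p = 0.994). Trap1, the mitochondrial HSP90, had -0.20 (SE 0.08, edgeR adjusted p = 0.994).

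Chaperones of the endoplasmic reticulum answer mainly to the unfolded protein response. For hydroquinone in knockout 12 of 12 had a positive log2 fold change, with a median of 0.10 against -0.0014 for all genes. In wild type 6 of 12 did, with a median of -0.0014 against -0.00020. For knockout under hydroquinone it was again 12 of 12, with a median of 0.10 against 0.015. Hydroquinone in knockout and knockout under hydroquinone share the knockout hydroquinone libraries. In each of these 2 comparisons only 1 of the 12 had an unadjusted edgeR p below 0.05. For hydroquinone in knockout 8 of 8 endothelial markers (median 0.29) and 8 of 8 macrophage markers (median 0.42) were also positive, and 0 of 15 rod markers (median -0.31). Untreated knockout replicate 4 had the lowest mean log2 level of the endoplasmic reticulum list, 7.49 against 7.69 to 7.80 in the rest of its group, and the highest summed rod markers of the 16 libraries, 25630 CPM. The part of these markers in the result was not tested. Hyou1, an HSP110-type chaperone of that compartment, averaged 123.0 ± 6.6 CPM in untreated and 150.2 ± 13.8 CPM in treated knockout libraries (mean ± SD of 4), for which edgeR gave 0.29 (SE 0.10, adjusted p = 1.00). Hsf2, another heat shock factor, had -0.36 in knockout (edgeR, SE 0.19, adjusted p = 1.00). The genotype comparisons named Fkbp5, an HSP90 co-chaperone, at -0.26 (SE 0.12) in untreated mice and Hikeshi, the nuclear import carrier of HSP70, at -0.16 (SE 0.07) averaged over treatment. Their edgeR adjusted p-values were 1.00 and 0.987.

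**Figure D5:**
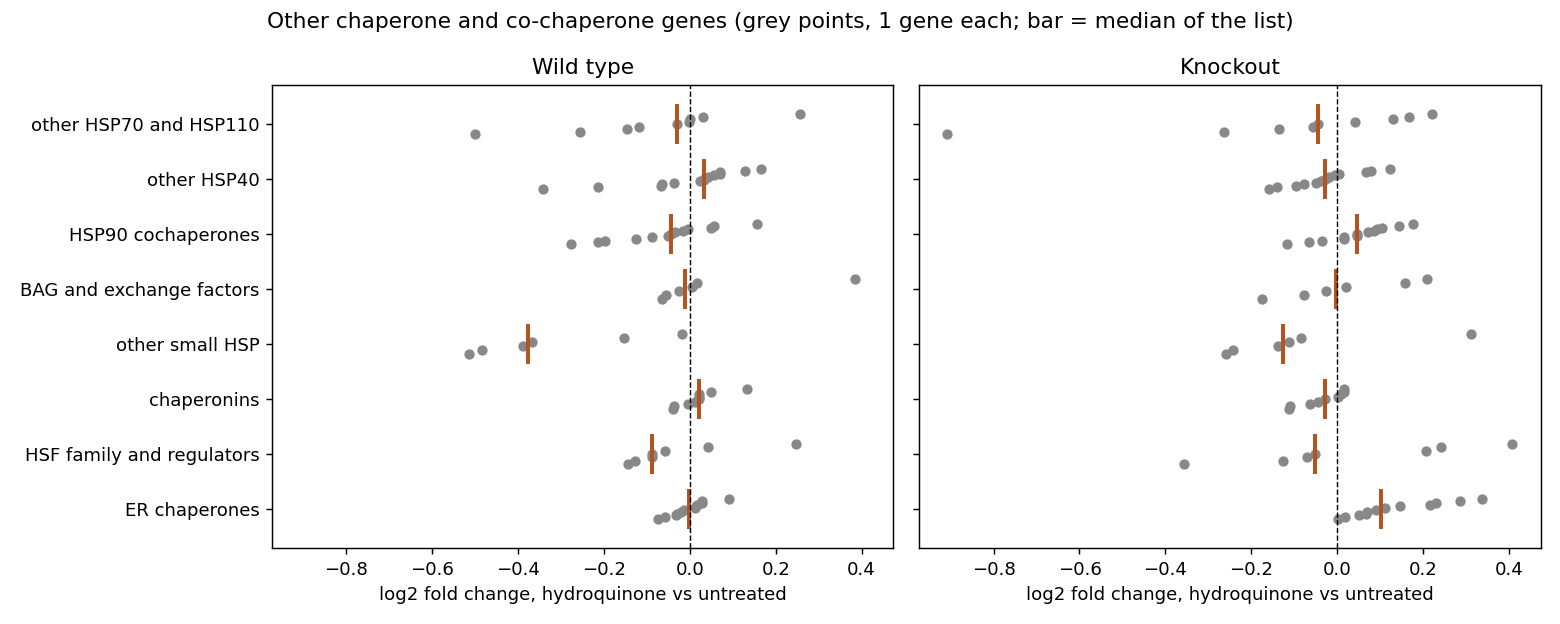
Log2 fold change for hydroquinone against untreated (x axis) of the other chaperone and co-chaperone genes, 1 grey point per gene in 8 lists, in wild type and in knockout, with the list median as a bar. The list of other small heat shock proteins has the lowest median in wild type (-0.38), and the endoplasmic reticulum list has 12 of 12 genes above 0 in knockout.

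The genes most like each of 4 members over the 13 mice were named by Pearson's r of log2(CPM + 1), as a description. For Hspa1a these were Slc37a1 (r = 0.962), Trabd (0.958), Dbnl (0.953), Tead3 (0.952) and Spint2 (0.944). For Hspb1 they were Polr1d (r = 0.982), H2afz (0.977), Rack1 (0.975), S100a16 (0.975) and Eif3h (0.971). For Hspa8 they were Acp2 (r = 0.925), Dusp3 (0.911), Bfar (0.908), Spg20 (0.904) and Ptgr2 (0.902). Likeness was lower for Hsph1, with Galnt6 (r = 0.822), Mlxipl (0.817), Mro (0.782), Rhou (0.772) and Pip4k2a (0.758). Of all these genes only Dusp3 was also among the 5 most alike by Spearman's rho, and no gene of the heat shock set itself appeared among them.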

How the data were processed

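RNA from RPE of 16 eyes was sequenced. The deposited file holds whole-number read counts per Ensembl gene as made by the authors; STAR, Cufflinks, DESeq2 and the build mm10 are named per the submitters' processing notes without roles, and the strand setting and the handling of reads matching several genes are not given in the sources used here. The file's name announces FPKM, but its values are whole numbers with unequal totals and were treated as counts. Symbols and coordinates came from GENCODE vM21 (GRCm38), promoters from RefSeq (GRCm38.p6).

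CPM used TMM-scaled library sizes. Tests were edgeR 4.0.16 quasi-likelihood F tests on all 16 libraries in 1 model of group means, for genes averaging 1 CPM or more (15380 genes, 99.8% of counts), with Benjamini-Hochberg adjustment and a threshold of 0.05. Alternatives used limma 3.58.1, DESeq2 1.42.0 and R 4.3.3; correlations used 100000 permutations.

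The 10 genes and all lists were chosen with earlier results of these data known. Text names all 10 genes; from the pathway lists the 3 with the smallest p per comparison where none passed, with repeats across comparisons left out and 1 gene not reported here; and the 5 most alike genes of 4 members. P-values treat both eyes of 1 mouse as independent and measure the spread between these libraries. No 2 libraries of a group were copies of each other (lowest chi-square per degree of freedom 23.6). The correlation of eyes of a mouse beyond their group was -0.017, from pairs that also differ in identifier form.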

Additional observations from a re-analysis of the deposited data

Results flagged for a closer look

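Within groups of 4 libraries, a library was marked when its gap to the nearest other library took up nearly the whole range of the group (Dixon's 95% limit). Over 13 measures in 4 groups this marked 3 of 52 sets, where chance gives about 2.6. Hspa1a in knockout with hydroquinone replicate 2 was at 5.04 log2(CPM + 1), with the other 3 libraries at 4.23 to 4.32, a ratio of gap to range of 0.8945. Hspa8 in untreated wild type replicate 4 was at 9.59, with the others at 9.95 to 9.99, a ratio of 0.8798. Hsp90ab1 in untreated wild type replicate 1 was at 10.3, with the others at 9.95 to 10.0, a ratio of 0.8291. The widely spread wild-type hydroquinone libraries were not marked in any of the 10 genes, because there 2 libraries are high together.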

How the results depend on the processing

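No alternative brought any of the 10 genes past the threshold: between 21 and 29 alternatives per comparison each gave 0, and the lowest adjusted p was 0.351 (edgeR, Hspb1, knockout under hydroquinone without wild-type hydroquinone replicate 3). The number of the 10 genes whose log2 fold change changed sign under at least 1 alternative was 9, 8 and 6 for hydroquinone in wild type, in knockout and averaged, 9, 8 and 8 for knockout untreated, under hydroquinone and averaged, and 8 for the interaction. Over all genes DESeq2 called 20 for hydroquinone in wild type where edgeR called 1, 14 where edgeR called 7 in knockout, 39 against 13 averaged over genotype, and 3 against 0 for knockout under hydroquinone.

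Alternatives without wild-type hydroquinone replicates 1 and 2 together, or with the corneal or immediate early score as a covariate, were added after seeing the data. Without that pair, hydroquinone in wild type gave Hspa1a -0.11, Hspa1b -0.79, Dnajb1 -0.35 and Hspb1 -0.60, knockout under hydroquinone gave Hspa1b 0.39 and Hspb1 0.37, knockout averaged gave Hspa1b 0.0078, the interaction gave Hspb1 0.50, hydroquinone averaged over genotype gave Hspa1a 0.08 (0.02 among libraries with a letter), and the inducible-minus-constitutive difference in wild type was -0.27. Among libraries with a letter, where wild type with hydroquinone has 1 library that is assumed to vary like the other groups, hydroquinone in wild type gave Hspa1b -0.62, Dnajb1 -0.25 and Hspb1 -0.19, and in knockout Hspa1a -0.071 and Dnajb1 -0.10. Among those without a letter, knockout gave Hspa1b 0.18 and Hspb1 0.12. In knockout Hspa1b was 0.025 with the rod score and 0.23 with the corneal score as covariate, Hspb1 0.18 with the corneal score, and Dnajb1 -0.0044 with the immediate early score. The causes were not tested.

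Leaving out each library in turn, the log2 fold change for hydroquinone in wild type ranged from -0.050 to 0.35 in Dnajb1, from 0.29 to 0.76 in Hspa1a, from 0.15 to 0.94 in Hspa1b and from 0.14 to 0.96 in Hspb1, each lowest without replicate 2 and highest without replicate 3 of the treated group. In knockout it ranged from -0.29 to 0.17 in Hspa1b, from -0.012 to 0.16 in Dnajb1 and from -0.21 to 0.0025 in Hspb1. For knockout under hydroquinone it ranged from -1.34 to -0.55 in Hspa1b and from -1.18 to -0.37 in Hspb1. No paired analysis between groups was possible because, by the sample titles, no mouse was in both groups of a comparison. The labels give no replicate numbers, and those used here are only names. The lowest counts in any library were 363 for Hspa1a, 564 for Hspb1 and 692 for Hspa1b.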

Other observations

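Hsph1 and Dnajb1 also varied with markers of pigment cells, as a description over the 13 mice. The mean log2 level of 6 melanocyte markers had r = 0.779 and rho = 0.830 with Hsph1 (permutation adjusted p = 0.0241 and 0.0227 over 100 pairs), and r was 0.782 without the 2 farthest mice. Within libraries without a letter it was 0.825 and within those with a letter 0.224. The mean level of the 12 RPE markers had r = -0.684 and rho = -0.775 with Dnajb1 (permutation adjusted p = 0.07 and 0.0287), with -0.683 and -0.867 within the forms without and with a letter and -0.704 without the 2 farthest mice. Rod photoreceptor markers passed with none of the 10 genes, the highest r being 0.587 with Hsp90aa1 (permutation adjusted p = 0.145; rho = 0.407, permutation adjusted p = 0.458).

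The chaperonin list holds Hspd1, the partner of Hspe1, and the subunits of the cytosolic TRiC complex. Its summed level ranged from 1140 to 1435 CPM over all 16 libraries, and all 9 genes had counts in every library. Summed HSP90 co-chaperones ranged from 1451 to 1693 CPM over the same libraries. Both ranges overlapped between all 4 groups.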
